A study of Mus musculus with 6 samples.

Results

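The genes described here build, cap, move and anchor actin filaments: the adhesion linkers Tln1 and Tes, the filament binders Flnc, Tpm2, Rai14 and Cald1, the capping subunit Capza2, the nucleation activator Wasl, the motor Myo10 and the guanine nucleotide exchange factor Trio. They are 10 of the 56953 gene rows of the deposited count table, chosen as actin-binding, capping, nucleation and focal adhesion genes on those stretches of chromosomes 4, 6 and 15 where row names fit the reads. All 10 passed the filter on low counts, which kept 14550 rows. RNA was sequenced from tailbud, the posterior end of the embryo with neuromesodermal progenitors and somitic and intermediate mesoderm. The sample titles give embryonic day 9.5, while the names of the count columns carry another number whose meaning is not stated. There were 3 libraries of genotype Fgfr1 FCPG/FCPG, homozygous for an allele of the FGF receptor gene with point mutations in residues that bind signaling effectors, and 3 wild-type libraries. The question behind the design is what the loss of canonical signaling from this receptor does to transcripts of developing mesoderm. The labels give neither strain nor litter nor the number of embryos per library, so the p-values below measure the spread between these libraries, which may be partly technical.

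Actin filaments grow at barbed ends, are started as branches by the Arp2/3 complex and are blocked by capping protein. Side-binding proteins stabilize them, as tropomyosins do, or cross-link them, as filamins do. At focal adhesions talin joins the tails of integrins to these filaments, so that cells can pull on the matrix. In the tailbud such machinery serves the movement of cells through the primitive streak region and the later epithelialization of somites, and FGF receptors are known regulators of both.

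Row names could be trusted over part of the table only, which was examined with 1095 ubiquitously expressed genes. On 3 stretches, all 54 such genes reached a mean of 10 CPM (counts scaled to a common library size, with TMM factors), with a median of 313 CPM. Of the other 1041 such genes, 327 reached it, with a median of 0.733 CPM. The stretches were chosen by this detection, so these shares describe them and do not test them. Tln1 and Tpm2 lie on the stretch of chromosome 4, close to each other. Pigo, the nearest ubiquitous gene before them, stood at 142 CPM and Clta, the nearest after, at 753 CPM. Rai14, Myo10 and Trio lie on that of chromosome 15, between Dnajc21 at 166 CPM and Cct5 at 2267 CPM. Tes, Capza2, Wasl and Flnc lie on that of chromosome 6. Flnc is the nearest of them to its end, beside Atp6v1f at 189 CPM and before Tnpo3 at 558 CPM, where the stretch stopped when the detection minimum was raised to 20 CPM.

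Cald1 went against the rule. It lies past Copg2, the last ubiquitous gene of the chromosome 6 stretch, and of the ubiquitous genes between them Chchd3, a protein of mitochondrial cristae, stood at 0.581 CPM and Exoc4, an exocyst subunit nearer to Cald1, at 14.2 CPM. The row named Akr1b3, for a widely expressed aldose reductase, was at 0 counts in all 6 libraries, and that of Bpgm, an enzyme of red blood cells, reached at most 0.112 CPM. By contrast, the row named Agbl3, also of chromosome 6 and off the stretch, averaged 146 CPM in the mutant and 112 CPM in wild type. Past Cald1, the next ubiquitous genes, Cnot4 and Nup205, stood at 70.1 and 122 CPM. A shorter list of ubiquitous genes that was tried first put the end of the stretch at Cnot4, beyond Cald1. The row named Cald1 is therefore given apart, and 9 genes are taken as readable. Even for these, the names are not secured gene by gene.

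**Figure D1:**
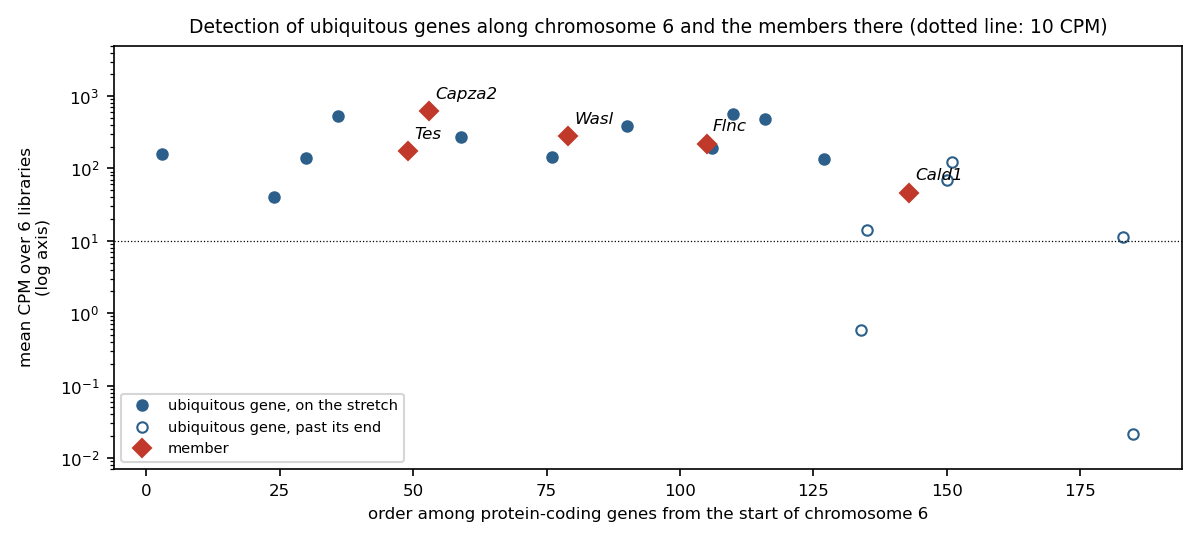
Mean CPM over 6 libraries (log axis) of ubiquitous genes (circles) and of Tes, Capza2, Wasl, Flnc and Cald1 (red diamonds) against their order among protein-coding genes from the start of chromosome 6. All filled circles lie above the dotted line of 10 CPM, and Cald1 stands past Chchd3 at 0.581 CPM, where the circles (open) scatter.

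Of the 10 genes, Flnc alone passed the test, higher in the mutant, and none was lower. This was 1 of 10, against 4.25% of the 14550 tested features called higher, 3.67% called lower and 7.92% called either way (edgeR quasi-likelihood test, Benjamini-Hochberg adjusted p below 0.05 over all tested features). Among the 560 tested features of the stretches 9.64% were called higher and 3.93% lower. At an unadjusted p below 0.05 in edgeR, 4 of the 10 were higher, and 3 of the 9 on the stretches, against 13.1% of all tested features and 23.8% of those on the stretches. In 4 genes, Flnc, Tes, Wasl and the row named Cald1, all mutant libraries lay above all wild-type libraries, against 15.8% of all tested features. Without Cald1 these were 3 of the 9 on the stretches, against 24.6% of the tested features there. No gene had all mutant libraries below all wild-type ones, which 16.1% of all tested features and 13.4% of those on the stretches had. Of the 9 readable genes, 8 had a log2 fold change above 0, with a median of 0.19, beside a median of -0.0062 over all tested features and 0.10 over those of the stretches, where 336 of 560 were above 0. Over all tested features 49.2% were above 0.

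Among the filament binders, Flnc encodes filamin C, the cross-linker of actin filaments found mostly in striated muscle, where it sits at Z-discs and membrane attachments. In mutant replicates 1 to 3, Flnc measured 213, 302 and 278 CPM. The wild-type replicates, in the same order, measured 188, 165 and 160.4 CPM. The groups did not overlap, and the lowest mutant library, replicate 1, lay close above the highest wild-type library, also replicate 1. It rose to 264 ± 46.1 CPM in the mutant, against 171 ± 14.8 CPM in wild type (SD, n = 3 each), 1.55-fold with a 95% interval of 1.25 to 1.91. On the log2 scale the difference was 0.63 with an SE of 0.13 (edgeR adjusted p = 0.0306). The call of Flnc rests on single libraries: the adjusted p in edgeR was 0.0556 without mutant replicate 2, 0.137 without wild-type replicate 2 and 0.113 without wild-type replicate 3, with log2 fold changes of 0.53, 0.60 and 0.59. Over all 14 alternative fits its adjusted p ran from 2.63e-07 to 0.137. Rows named for Y-linked genes averaged 0.0208, 225 and 166 CPM in the mutant replicates and 148, 0.147 and 0.0401 CPM in the wild-type replicates, which places 2 of 3 mutant libraries and 1 of 3 wild-type libraries high. Chromosome Y was not searched for stretches, so the names of these rows were not examined, and the sex read from them is not secured. With a term for embryo sex read from these rows, the log2 fold change of Flnc was 0.51 and the call held (edgeR adjusted p = 0.0348).

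Other settings called further genes. The DESeq2 Wald test and the edgeR fit without a low-count filter each called Flnc, Tes and the row named Cald1 higher, 3 of 10, against 5.93% and 4.06% of all features under those settings. The share on the stretches was not computed for these settings. In the main fit it was 9.64%, against 4.25% of all tested features.

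Tpm2, a tropomyosin that lies along the filament and is abundant in contractile cells, stood at 128, 141 and 91.4 CPM in the mutant replicates and at 105, 114 and 129 CPM in wild type. The groups overlapped fully, with both the highest and the lowest library in the mutant. Its log2 fold change was 0.05 with a 95% interval of -0.32 to 0.42, so differences within that interval are compatible with these libraries. Rai14, an ankyrin repeat protein associated with actin bundles, stood at 522, 571 and 382 CPM in the mutant and at 445, 413 and 426 CPM in wild type. Mutant replicates 1 and 2 lay above all wild-type libraries and mutant replicate 3 below them all. Its log2 fold change of 0.20 ± 0.14 (SE) did not pass (adjusted p = 0.404 by edgeR), and without mutant replicate 3 it was 0.37 and passed (adjusted p = 0.0387).

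The row named Cald1, for caldesmon, which binds actin and tropomyosin and restrains myosin, stood at 47.02, 56.2 and 53.8 CPM in the mutant and at 40.5, 41.7 and 36.7 CPM in wild type. The groups did not overlap and the difference on the log2 scale was 0.40 with an SE of 0.10 (edgeR adjusted p = 0.0536). Which transcripts these counts come from cannot be read from the table, so the values are not taken as caldesmon expression.

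The adhesion linkers both averaged higher in the mutant without passing the test. Tes encodes testin, a LIM domain protein of focal adhesions and cell contacts. Tes stood at 209.7, 221 and 161 CPM in the mutant and at 153, 145 and 150.2 CPM in wild type. All mutant libraries lay above the wild-type ones, but mutant replicate 3 only by a small margin. The means were 197 ± 31.6 CPM in the mutant and 149 ± 4.32 CPM in wild type (SD, n = 3 each), a difference of 0.40 on the log2 scale with an SE of 0.12 (edgeR adjusted p = 0.0789). Without mutant replicate 3 it was 0.54 and passed (edgeR adjusted p = 0.0130). Tln1 encodes talin 1, which activates integrins and ties them to actin. Tln1 stood at 762, 822 and 700.4 CPM in the mutant and at 729, 686 and 591 CPM in wild type. The groups overlapped, with wild-type replicate 1 above mutant replicate 3, and the log2 fold change was 0.19 with a 95% interval of -0.04 to 0.42 (adjusted p = 0.279 by edgeR).

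For the genes that control filament ends and starts, differences were small. Capza2 encodes an alpha subunit of capping protein, which blocks barbed ends. Capza2 stood at 642, 653 and 618 CPM in the mutant and at 539.8, 584 and 678 CPM in wild type. The mutant libraries lay inside the wild-type range, and the fold was 1.06 with a 95% interval of 0.915 to 1.23. Wasl encodes N-WASP, which switches on the Arp2/3 complex downstream of Cdc42 and phosphoinositides. Wasl stood at 299, 310.1 and 285 CPM in the mutant and at 259, 259.9 and 251 CPM in wild type. The groups did not overlap and both were tight, at 298 ± 12.6 CPM in the mutant and 257 ± 5.09 CPM in wild type (SD, n = 3 each). The log2 fold change of 0.22 ± 0.07 (SE) missed the threshold (adjusted p = 0.101 by edgeR), as it did in all 14 alternative fits, with adjusted p from 0.0854 to 0.264.

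Neither the motor nor the exchange factor passed the test (edgeR adjusted p = 0.761 for Myo10 and 0.508 for Trio). Myo10, the unconventional myosin that travels to the tips of filopodia, stood at 242, 307 and 228 CPM in the mutant and at 261, 288 and 266 CPM in wild type. Mutant replicate 2 was above all wild-type libraries and the other mutant libraries below them, and the fold was 0.954 with a 95% interval of 0.793 to 1.15. Trio, an exchange factor for Rac1, RhoG and RhoA, stood at 374, 431 and 434 CPM in the mutant and at 389.7, 407 and 356 CPM in wild type. The groups overlapped, and the fold was 1.07 with a 95% interval of 0.933 to 1.24.

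**Figure D2:**
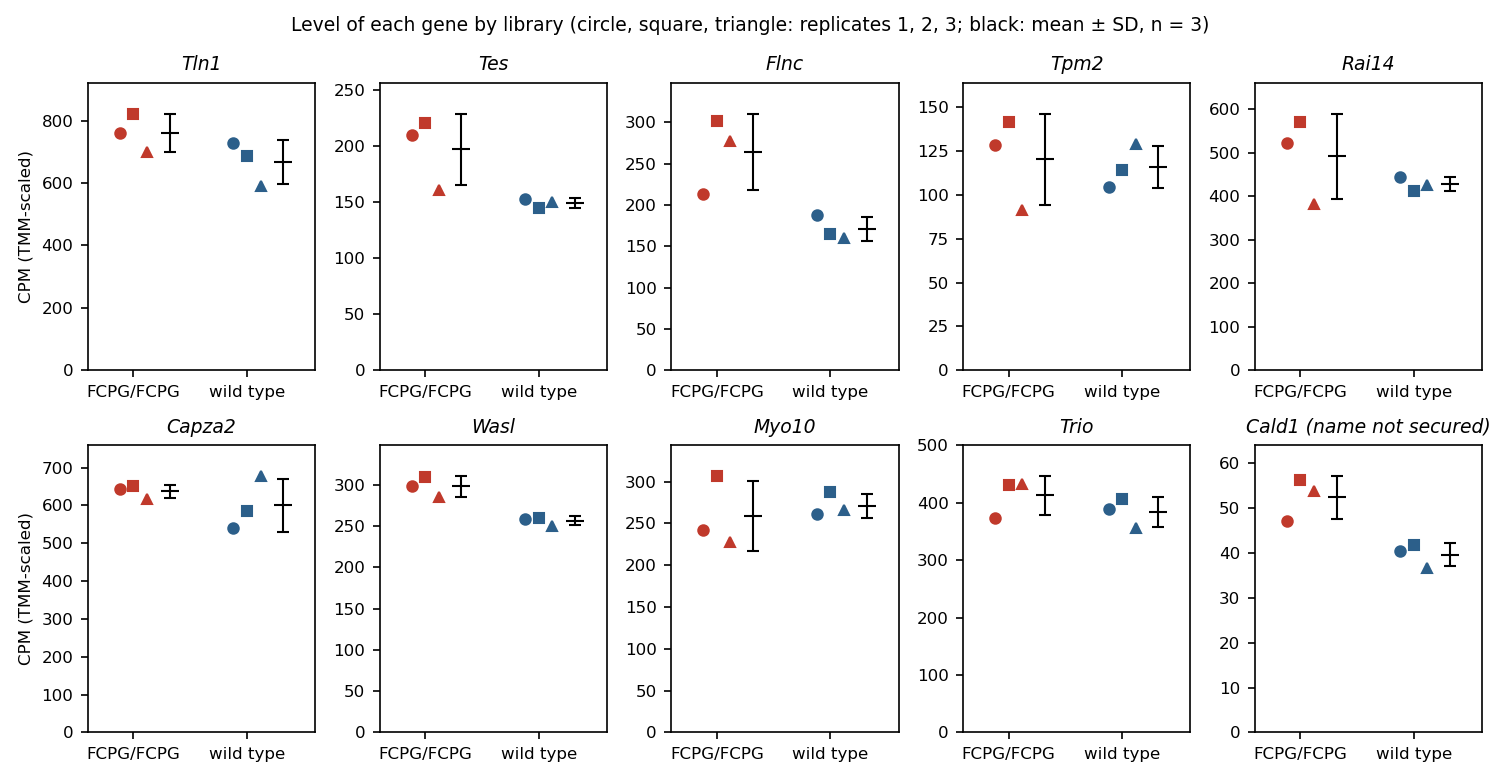
CPM on TMM-scaled library sizes for each of the 10 genes, mutant (red) left of wild type (blue), with replicates 1 to 3 as circle, square and triangle and the mean ± SD in black (n = 3 each). Flnc, Tes, Wasl and the row named Cald1 show no overlap, and mutant replicate 2 is the highest library in 7 of the 9 genes other than Cald1.

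Libraries differed within the genotypes. Mutant replicate 2 was the highest of the 6 libraries in 7 of the 9 readable genes, whereas it was highest in 22.9% of all tested features. Mutant replicate 3 was the lowest in 3 of them, Tpm2, Rai14 and Myo10, against 19.6% of all tested features. Wild-type replicate 3 was the lowest in 4, Tln1, Flnc, Wasl and Trio, against 19.1% of all tested features. The genes thus do not share a single order of libraries, and Flnc and Trio were high in mutant replicate 3 where Tpm2, Rai14 and Myo10 were lowest.

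Per kilobase of annotated exon, Capza2 had the highest level of the 9 genes, at 108 ± 3.03 CPM per kb in the mutant and 102 ± 11.97 CPM per kb in wild type. Tln1 followed with levels of 77.7 ± 6.22 and Rai14 with 58.1 ± 11.6 CPM per kb in the mutant, against 68.2 ± 7.19 and 50.6 ± 1.86 CPM per kb in wild type (SD, n = 3 each). Wasl and Tpm2 came next, at 48.3 ± 2.05 and 41.4 ± 8.92 CPM per kb in the mutant and 41.6 ± 0.826 and 39.8 ± 4.19 CPM per kb in wild type, and did not differ from each other beyond their spread in either genotype. In the mutant, Rai14 and Wasl did not differ beyond their spread either. Tes, Flnc and Myo10, at 28.8 ± 4.63, 28.1 ± 4.90 and 25.6 ± 4.13 CPM per kb in the mutant, could not be ordered. In wild type Myo10 stood at 26.8 ± 1.42, Tes at 21.8 ± 0.632 and Flnc at 18.2 ± 1.58 CPM per kb. Trio was the lowest in both genotypes, at 17.7 ± 1.44 CPM per kb in the mutant and 16.4 ± 1.11 CPM per kb in wild type, where it was close to Flnc. Overlapping genes may have added to or taken from some counts, since the strand setting of the counting is not given in the sources used here. Exons of Tln1 overlap 360 bases of Creb3 on the other strand, those of Tes 144 bases of the antisense gene Gm4876 and those of Rai14 89 bases of the antisense gene Gm10389.

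The authors' deposited table called 3 of the 10 genes, all higher in the mutant, against 6.69% of its 14918 features with an adjusted p called higher and 5.39% called lower. Its share on the stretches alone was not computed, and 1 of the 3 is the row named Cald1, which lies off them. In the authors' deposited table Flnc had a log2 fold change of 0.63 and an adjusted p of 0.000688, the row named Cald1 one of 0.41 and an adjusted p of 0.0215, and Tes one of 0.41 and an adjusted p of 0.0356. The next lowest adjusted p in the authors' deposited table was that of Wasl, 0.129.

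Of the 9 readable genes, 3 had groups that did not overlap, against 24.6% of the tested features of the stretches with the mutant higher. Flnc alone of these 3 was called. The start regions of these 3 genes are shown. Each runs from 250 bases before to 50 bases after an annotated start (RefSeq, build GRCm38.p6), written 5′ to 3′ on the strand of the gene. Capitals mark a match to GGAATG, the core letters of TEAD binding sites, on either strand. The build differs from the mm39 named in the submitters' processing notes, and the counts carry no coordinates.
Flnc, chr6:29432903-29433202, plus strand: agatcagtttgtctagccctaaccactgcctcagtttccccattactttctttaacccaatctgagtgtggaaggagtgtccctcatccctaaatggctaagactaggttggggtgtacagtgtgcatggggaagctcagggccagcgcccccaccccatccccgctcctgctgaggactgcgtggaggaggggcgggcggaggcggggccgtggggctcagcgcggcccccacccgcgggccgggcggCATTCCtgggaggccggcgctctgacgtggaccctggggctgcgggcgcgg
Tes, chr6:17064899-17065198, plus strand: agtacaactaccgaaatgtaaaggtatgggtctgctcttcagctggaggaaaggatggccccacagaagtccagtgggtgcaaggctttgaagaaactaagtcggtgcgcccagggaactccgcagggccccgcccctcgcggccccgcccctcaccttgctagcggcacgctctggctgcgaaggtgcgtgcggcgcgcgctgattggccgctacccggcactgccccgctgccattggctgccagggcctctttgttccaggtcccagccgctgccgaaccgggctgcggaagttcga
Wasl, chr6:24664946-24665245, minus strand: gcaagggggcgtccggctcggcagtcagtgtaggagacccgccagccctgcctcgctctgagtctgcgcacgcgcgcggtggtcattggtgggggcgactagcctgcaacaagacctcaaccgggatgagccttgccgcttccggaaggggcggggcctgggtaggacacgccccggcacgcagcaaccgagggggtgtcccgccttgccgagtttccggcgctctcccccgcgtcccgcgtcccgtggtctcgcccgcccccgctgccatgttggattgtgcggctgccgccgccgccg
All were rich in CpG, with 19, 24 and 36 CpG dinucleotides in Flnc, Tes and Wasl, beside a median of 7 over the 32851 promoters of the table. Flnc has a further entry, not printed here, with 30 CpG dinucleotides. The match in Flnc lies on the reverse strand. It begins 1 base before the annotated start of the printed entry and 104 bases before that of the further entry. Over the 12 listed promoters of the 9 genes, GGAATG or its reverse complement stood in 4, belonging to Flnc, Myo10 and Rai14, against 14.7% of all promoters. The windows of both Flnc entries overlap and hold the same match, so these 4 are not separate sites. The CArG box, the site of serum response factor, and the AP-1 letters TGANTCA stood in 0 of the 12, against 1.63% and 7.81% of all promoters, searched on both strands. Matches are letters in these windows, and their part in the levels was not tested.

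Other genes of the pathway were taken from a list of 274 actin cytoskeleton and cell adhesion genes. Of the 271 found in the table, 16 lie on the stretches and 13 of these were tested, with 2 called higher, 0 lower and a median log2 fold change of -0.12. Over all tested features 4.25% were called higher and 3.67% lower, and over those of the stretches 9.64% and 3.93%. The called genes were Cav1, the main protein of caveolae, and Ctnnd2, the adherens junction protein delta-catenin. Ctnnd2 stood at 50.5, 55.8 and 51.7 CPM in the mutant and at 24.2, 26.5 and 21.5 CPM in wild type, clear of each other. On the log2 scale the difference was 1.13 with an SE of 0.11 (edgeR adjusted p = 0.00389). The call of Ctnnd2 held in all 14 alternative fits, with log2 fold changes from 1.06 to 1.20. Cav1 stood at 60.03, 185 and 19.8 CPM in the mutant and at 14.1, 9.02 and 7.97 CPM in wild type, so its size rests on mutant replicate 2. The log2 difference was 3.08 with an SE of 0.71 (edgeR adjusted p = 0.0371), and 1.95 without that library (edgeR adjusted p = 0.0476). The call was lost without mutant replicate 1 or without any 1 wild-type replicate, with adjusted p in edgeR of 0.0668, 0.0732, 0.159 and 0.136. It was also lost with the term for embryo sex (edgeR adjusted p = 0.0814) and in limma-voom (adjusted p = 0.111).

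Of the others, Tesk1, a kinase that phosphorylates cofilin, stood at 54.6, 54.2 and 51.3 CPM in the mutant and at 63.2, 67.3 and 68.7 CPM in wild type. All mutant libraries lay below the wild-type ones, with a log2 fold change of -0.31 ± 0.09 (SE) short of the threshold (adjusted p = 0.0609 by edgeR). Cttnbp2, a cortactin-binding protein, had a log2 fold change of 0.84 (adjusted p = 0.101 by edgeR), and Cav2, a caveolar protein like Cav1, had 0.51 (adjusted p = 0.328). Cav2 was high in mutant replicate 2 alone, and without that library its log2 fold change was 0.075. The membrane-attached protein Basp1, the cadherin Cdh6, the syndecan Sdc2, the exchange factor Arhgef39 and the coronin Coro2a differed by -0.12, 0.34, -0.14, -0.20 and -0.26 on the log2 scale and were not called. Tmod1 and Cdh12 are less abundant and were picked out after their values were seen, as the most negative of the 13. Tmod1, the pointed-end capping protein tropomodulin 1, stood at 3.66, 7.77 and 6.85 CPM in the mutant and at 16.8, 8.47 and 6.32 CPM in wild type. These groups overlapped, and its log2 fold change of -0.80 was not called (edgeR adjusted p = 0.249), although it was with the term for embryo sex (-1.11, adjusted p = 0.0280) and without the low-count filter (-0.78, adjusted p = 0.00383). The cadherin Cdh12 did not overlap between the groups, at a log2 fold change of -1.45 (edgeR adjusted p = 0.209), but stood at no more than 1.07 CPM in any library. Ppp1r9a, which encodes the actin-binding scaffold neurabin, was on no list and was picked out after its values were seen. Ppp1r9a stood at 173, 229 and 218 CPM in the mutant and at 159.6, 143 and 125 CPM in wild type, 0.54 higher on the log2 scale with an SE of 0.13 (edgeR adjusted p = 0.0452), and 7 of its 14 alternative fits kept the call.

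**Figure D3:**
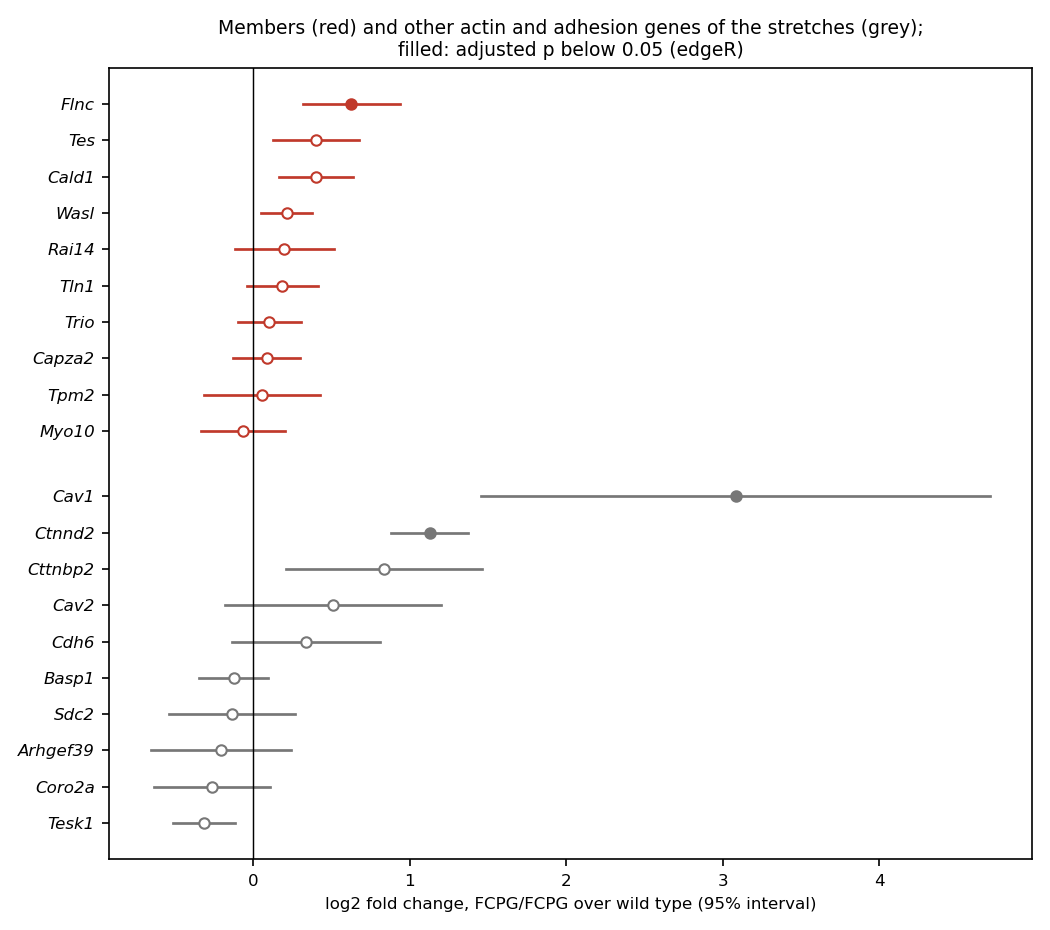
Log2 fold change of the mutant over wild type with its 95% interval for the 10 genes (red) and for 10 tested pathway genes of the stretches, the 2 called and the 8 most abundant of the others (grey), filled where the adjusted p was below 0.05. Flnc, Cav1 and Ctnnd2 are filled, and the intervals of Tes, Wasl and Cald1 exclude 0 without a call, as do those of Cttnbp2 and Tesk1.

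Some markers of other cell types were called, in both directions. Over the tested features of the stretches 9.64% were called higher and 3.93% lower, and over all tested features 4.25% and 3.67%. Of 18 erythroid markers 2, Hemgn and Tspan33, lie on the stretches, and both were called lower, with a summed level of 34.5 to 49.7 CPM in the mutant and 121 to 183 CPM in wild type. Of 13 mesenchyme markers 4 lie there, with Col1a2 and Mest called higher, Tfpi2 lower and Col15a1 not called (log2 fold change -0.25). Their summed level, mostly Mest, was 5555 to 6553 CPM in the mutant and 2651 to 3559 CPM in wild type. Of 18 neural markers 3 lie there. Pou3f2 and Prdm13 were called higher, although the groups overlapped for Prdm13, and Gabbr2 was not called (log2 fold change -0.19). The sum of the 3, mostly Pou3f2, was highest in mutant replicate 2. It ran from 24.2 to 344 CPM in the mutant and from 6.37 to 14.2 CPM in wild type. Of 11 epithelial markers 1, Esrp1, lies there and was not called, at 71.5 to 126 CPM in the mutant and 136 to 174 CPM in wild type. None of the 15 muscle or 13 endothelial markers lies on the stretches, so the tissue in which Flnc and Tpm2 are best known could not be followed. The part of these cells in the levels of the actin genes was not tested, and in bulk tissue fewer cells of a type cannot be told apart from less RNA per cell. Library totals ran from 16984568 to 27316475 counts, and mutant replicate 2 was the smallest. The row named Fgfr1 lies off the stretches, at 25.3 to 29.2 CPM in the mutant and 26.8 to 29.7 CPM in wild type, and does not check the labels.

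**Figure D4:**
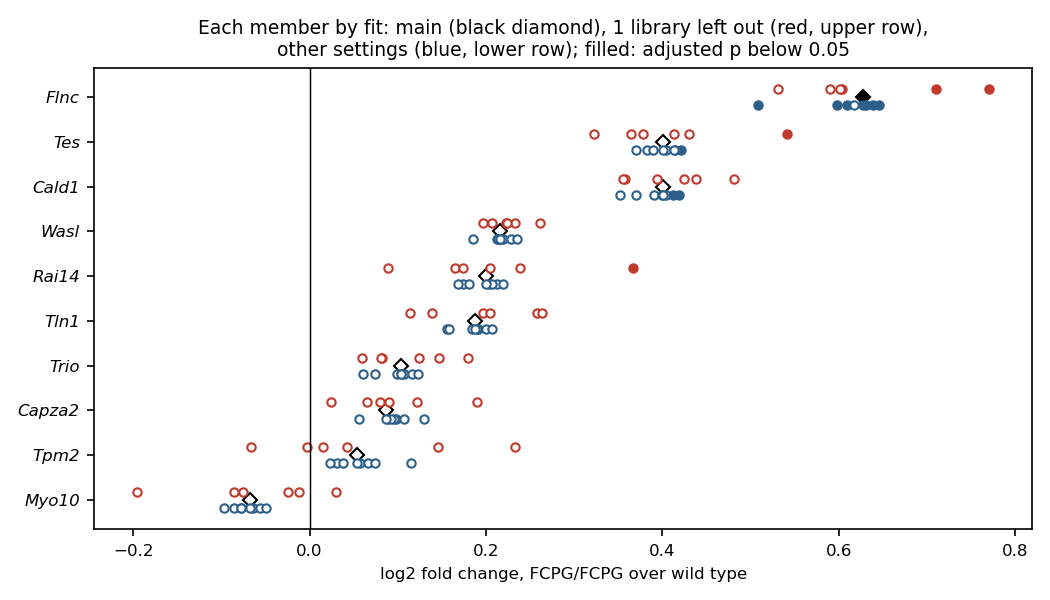
Log2 fold change of each of the 10 genes as reported (black diamond), in the fits that leave out 1 library (red) and in the other settings (blue), filled where the adjusted p was below 0.05. Flnc keeps its sign in all 14 alternatives and its call in 10, and Tpm2 and Myo10 lie on both sides of 0.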

How the data were processed

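Tailbud RNA of mouse embryos was sequenced as 6 polyadenylated, stranded libraries, per the labels. The main file deposited by the authors holds unnormalized whole-number counts for each Ensembl gene. Bowtie, featureCounts, DESeq, DESeq2 and mm39 appear, without roles, in the submitters' processing notes. Neither the annotation release nor the strand setting of the counting is given in the sources used here. A second file deposited by the authors is a table of DESeq2 form with the mean normalized count (a signal), log2 fold changes with standard errors, the Wald score, and p-values with adjusted p-values, per the file headers. Each column was assigned through the genotype and replicate in its name, which also carries a number other than the day in the titles. IDs were cut to 18 characters, and 52029 of 56953 matched a symbol.

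Libraries were compared with edgeR 4.0.16 in R 4.3.3 (filterByExpr by group, TMM, quasi-likelihood F test, no covariate), and the fit was tested on simulated data. Calls are at an adjusted p below 0.05 over all tested features, and fold changes are mutant over wild type. Alternatives used DESeq2 1.42.0, limma 3.58.1 (voom), other filters, a replicate block, a term for sex read from rows named for Y-linked genes, and each library left out.

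Stretches with fitting row names were found with a hidden Markov model over families of ubiquitous genes in GENCODE M21 order, with a chance of detection at 10 CPM of 0.95 or 0.25, a chance of change of 0.03, and runs of at least 6 genes with a posterior above 0.95. A shorter list of these families, tried first, ended the chromosome 6 stretch later and is kept as an alternative chosen after seeing the data. The members, the lists and the ubiquitous families were chosen with earlier results of these data known. All 10 members are named, with called pathway genes of the stretches and the 8 most abundant uncalled ones. Tmod1, Cdh12 and Ppp1r9a were added after their values were seen, and Cdh10 is named where the fits are compared. Exon lengths are the union over GENCODE M21 transcripts.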

Additional observations from a re-analysis of the deposited data

How the results depend on the processing

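Against 1 member higher, the DESeq2 Wald test and the fit without a low-count filter each called 3, and the replicate block called 0. Leaving out 1 library at a time gave 0 to 3 higher; no setting called a member lower. Pathway genes called higher numbered 2, against 1 in limma-voom, 4 without the low-count filter, 1 with the term for embryo sex and 1 to 2 with a library left out; 1 was lower without the low-count filter (Tmod1), 1 with the filter of 5 CPM in 3 libraries (Tesk1) and 1 with the sex term (Tmod1), against 0. Over all features, 618 higher and 534 lower became 941 higher in the DESeq2 Wald test, 1352 and 1145 without the filter, 273 and 264 with the sex term, and 66 to 783 higher and 63 to 565 lower with a library left out, lowest without wild-type replicate 2. The cause was not tested.

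With a library left out, log2 fold changes crossed 0 for Tpm2 (-0.067 to 0.23), Myo10 (-0.20 to 0.030), Sdc2 (-0.26 to 0.084), Arhgef39 (-0.32 to 0.017) and Cdh10 (-0.58 to 0.71); Cdh10 was also at -0.031 in limma-voom and -0.0049 with the sex term. The other members kept their sign in all 14 alternatives. Same-numbered libraries did not deviate together (r = -0.23, -0.0051 and -0.0075). With 3 libraries a group these values cannot exclude a pairing by number, and the labels state none. Under the replicate block Flnc had an adjusted p of 0.0544 in edgeR, 0 members were higher, and 3 pathway genes were higher. The shorter list of ubiquitous genes, an alternative chosen after seeing the data, and the 20 CPM minimum each left the counts at 2 pathway genes higher and 0 lower. The number of libraries, 3 a group, limits the precision.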
